A study of Homo sapiens with 12 samples.

Results

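The comparison described here sets knockdown of IGF2BP1 directly against knockdown of IGF2BP3 in ES-2, a human ovarian cancer cell line in long use. It uses 6 of the 12 total RNA libraries of the study: 3 from cells given an siRNA pool against IGF2BP1 (siI1) and 3 from cells given an siRNA pool against IGF2BP3 (siI3). Both groups share the parental line and the medium, and differ in the pool. The other 6 libraries, 3 with control siRNAs (siC) and 3 with a pool against IGF2BP2 (siI2), took no part in the fold change and are given only for position. Every gene of the deposited table except the ERCC spike-in RNAs was eligible, and 12648 of 57773 had enough reads to be tested. Each gene was targeted by a single pool, so loss of the target and other effects of that pool's sequences cannot be told apart. Whether replicate libraries of a group are separate cultures is not given in the labels, and the p-values therefore cover only the spread among these libraries, which may be technical.

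IGF2BP1 and IGF2BP3 belong to a family of RNA-binding proteins. Both are abundant in embryonic tissue, largely silent in most adult tissues and made again in many carcinomas. They bind overlapping sets of mRNAs and are known to influence their stability, localization and translation, in part by limiting access of miRNA complexes to the message. IGF2BP1 in particular is known for shielding oncogenic mRNAs such as the let-7 target HMGA2 in tumour cells, and the study's title concerns its effect on repression by miRNAs. A direct comparison of the knockdowns asks which mRNAs respond differently to the loss of one paralog and of the other, without a control in the difference.

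Levels are in FPM, the authors' depth-normalized fragment unit, and fold changes are differences of log2(FPM + 1), siI1 minus siI3, so that a positive value means a higher level after IGF2BP1 knockdown. The 6 libraries held 4857951 to 8277786 reads, and 3 reads, the limit that a count of 0 allows, corresponded to 0.381 to 0.532 FPM. Replicates differed by more than sampling noise in every pair (chi-square divided by its degrees of freedom, 8.43 to 88.6). A pair of libraries stood apart. In siI3 replicate 3, the shallowest of the 6, the U1 spliceosomal RNA took 11.0% of reads against 1.06% and 1.11% in the other siI3 libraries, and 31369 genes had at least 1 read against 24089 to 26450 in the other 5. In siI1 replicate 2, U1 took 12.6% of reads against 5.58% and 2.87%. Counts of called genes are therefore also given without siI3 replicate 3, and what sets it apart was not tested. In siC, U1 took 8.5% to 19.8% of reads, a range that holds the shares of both libraries. Leaving out siI1 replicate 2 is part of the fits without 1 library, and called 561 genes. Markers of the labelled origin were mixed. Keratins KRT7, KRT8 and KRT18 and the intermediate filament gene VIM were abundant, whereas PAX8, WT1 and EPCAM averaged at most 1.16 FPM in either group. The leukocyte genes PTPRC and CD3E averaged at most 0.342 FPM. Of the 10 endothelial markers listed 3 were tested and 0 called (1 higher and 1 lower without siI3 replicate 3). These were TIE1 (167 ± 23 FPM in siI1 and 236 ± 84 FPM in siI3, mean ± SD of 3 libraries as for all such values), CDH5 (140.4 ± 8.05 and 101 ± 7.56 FPM) and ROBO4 (29.4 ± 0.592 and 25.6 ± 5.35 FPM), while VWF averaged at most 1.15 FPM.

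Each pool left its own target lower. IGF2BP1 was at 10.7, 11.7 and 10.8 FPM in the siI1 libraries and 39, 35.3 and 42.5 FPM in the siI3 libraries (log2 fold change -1.73, SE 0.18, adjusted p = 0.000358 by limma). IGF2BP3 was at 14.9, 17.4 and 13.3 FPM in siI1 and 5.89, 2.54 and 5.14 FPM in siI3 (1.6, SE 0.28, adjusted p = 0.00629). Neither gene had overlapping groups. The siI3 level of IGF2BP1 was near its level in siC (41.9, 49.1 and 40.7 FPM), and IGF2BP3 in siI1 lay below its siC level (21.7, 19.5 and 29.4 FPM). IGF2BP2, the family member that neither pool was aimed at, was at 89.1 ± 7.0 FPM in siI1 and 103 ± 12.5 FPM in siI3, a difference that did not pass (adjusted p = 0.506).

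In all, 1079 genes (8.53%) were called at an adjusted p under 0.05, 700 higher in siI1 (5.53%) and 379 lower (3.0%), so that 64.9% of calls were higher in siI1. Every called gene had groups that did not overlap, against 29.2% of all genes tested. The majority was smaller under each of the 4 other scalings tried, with 60.2% higher for RLE factors and 58.3% for TMM factors, 634 higher and 581 lower (52.2% higher) for upper-quartile factors and 632 higher and 599 lower (51.3% higher) without a factor. The median called gene differed by 1.16 on the log2 scale among those higher in siI1 and by 1.13 in size among those lower. The signed median over all genes tested was 0.02. More than 4-fold differences numbered 80 in the higher direction and 22 in the lower. Without siI3 replicate 3 the test called 2933 genes, 1546 higher (12.2%) and 1387 lower (11.0%), which included all 1079. These shares, and those with all 6 libraries, are the background for every list count below. Without any 1 of the other 5 libraries it called 456 to 573. Protein-coding genes made up 638 of the 700 and 352 of the 379, and long noncoding RNAs 28 and 12.

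**Figure D1:**
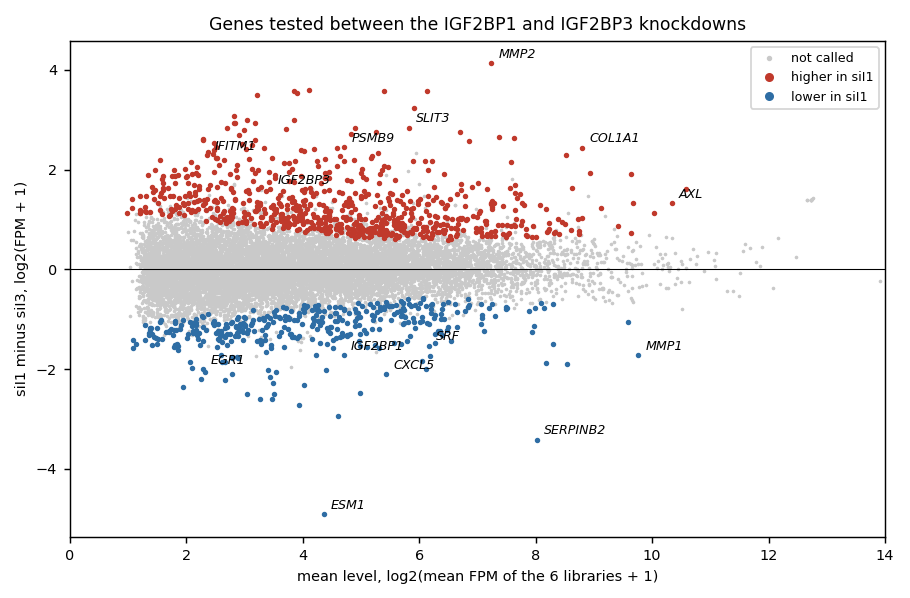
Difference between the knockdowns (siI1 minus siI3, log2(FPM + 1)) against mean level (log2 of the mean FPM of the 6 libraries plus 1) for the 12648 genes tested, 1 point a gene, red where called higher in siI1, blue where called lower and grey where not called. Red points outnumber blue by 700 to 379, and MMP2 at 4.13 and ESM1 at -4.91 are the outermost called genes in each direction.

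On the log2(FPM + 1) scale, the largest difference among genes higher in siI1 was in a secreted protease. MMP2, the gelatinase that degrades basement membrane collagen, was at 279.7, 274 and 300.2 FPM in siI1 and 13, 15.1 and 18.1 FPM in siI3 (4.13, SE 0.17, adjusted p = 1.8e-06). EFEMP1, the elastic fibre protein fibulin-3, was at 24.1, 37.1 and 31.6 FPM and 1.12, 1.14 and 2.84 FPM (3.6, SE 0.29, adjusted p = 8.42e-05). For both genes every siI1 library lay far above every siI3 library. Among the other genes that led in this direction were the membrane glycoprotein gene GYPC (3.58), TUFT1 (3.58), the T cell checkpoint ligand VSIR (3.57), the metalloprotease ADAMTS15 (3.5), the membrane receptor HEG1 (3.23) and the retinoid-responsive genes RARRES3 (3.08) and DHRS3 (3.0). NNMT, which methylates nicotinamide, was also among them (2.84), as were GSG1 (2.99), ZNF608 (2.94) and ANXA8 (2.94), the last with near-identical copies that the counting may split. The RNAs AC124067.2 (3.54), which lies inside an intron of another gene and cannot be told apart from that gene's reads, and AL590004.3 (2.93) complete the 15. As a ratio of group means, ADAMTS15 (32.0), VSIR (21.4), RARRES3 (21.2) and AC124067.2 (19.2) exceeded MMP2 (18.5). In siI3 ADAMTS15 held 2, 4 and 4 reads, GSG1 6, 3 and 8, and RARRES3 8, 4 and 0. ANXA8 held 1, 6 and 6 reads there and AL590004.3 0, 1 and 15, so the sizes for these genes are uncertain.

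In the opposite direction ESM1, a proteoglycan secreted by activated endothelium and some tumours, stood first. It was at 43.6, 39.8 and 33.1 FPM in siI3, whereas the siI1 libraries held 2, 1 and 3 reads, at or under the floor. The summed reads gave a ratio of 121 in favour of siI3, with a 95% interval of 55.5 to 332 that covers counting error only. SERPINB2, an inhibitor of plasminogen activators, was at 40.4, 43.5 and 47 FPM in siI1 and 457, 525 and 443 FPM in siI3 (-3.41, SE 0.16, adjusted p = 2.08e-06). CCDC6, a coiled-coil protein known as a fusion partner of RET, was at 3.88, 6.72 and 3.59 FPM and 39.99, 42.8 and 43.6 FPM (-2.95, SE 0.24, adjusted p = 8.17e-05). The siC libraries held 39, 36.5 and 43.7 FPM of CCDC6, as high as siI3, so that the siI1 libraries alone were low. VGF, a secreted peptide precursor induced by growth factors, was lower in siI1 (-2.71), as were the stromelysin MMP3 (-2.49), the chemokine CXCL3 (-2.22), the angiopoietin ANGPT2 (-2.19), ARMC4 (-2.33), TAGLN3 (-2.16) and the noncoding LINC00707 (-2.28). Keratin-associated genes KRTAP2-1, KRTAP2-2, KRTAP2-3 and KRTAP2-4 had differences of -2.49 to -2.61, but they are near-identical copies whose reads cannot be assigned with certainty. The synaptic immediate early gene ARC had 2, 2 and 0 reads in siI1 against 48, 24 and 37 in siI3, a ratio of 24.5 (95% interval 9.29 to 91.5). All 30 of these genes stayed called when any single library of the 6 was left out.

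**Figure D2:**
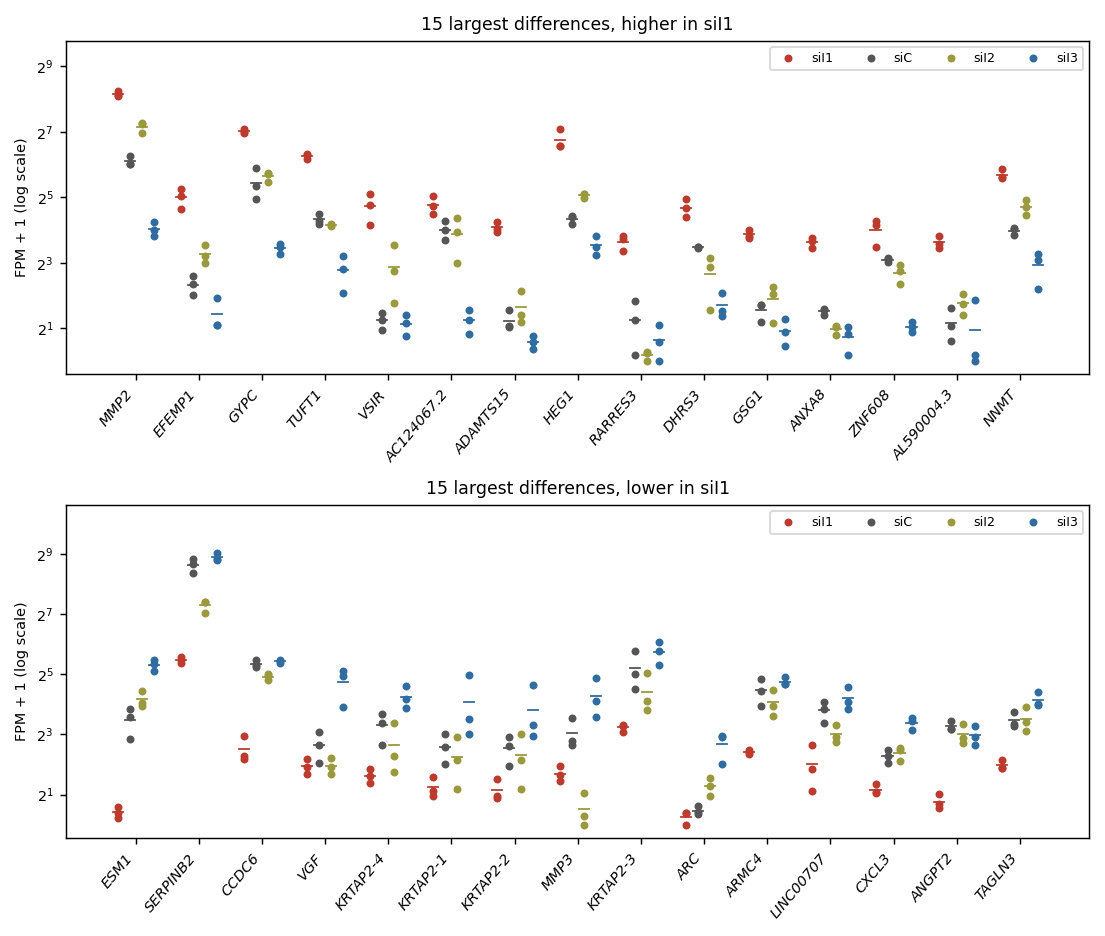
Level of the 15 genes with the largest differences in each direction (FPM + 1, log axis), 1 point a library and a bar at the arithmetic mean of each group, for siI1, siC, siI2 and siI3. The 30 genes were chosen for groups that did not overlap, so the siI1 points lie apart from the siI3 points by choice. MMP2 has the siC points between those of siI1 and siI3.

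Among collagens, the main fibres and sheets of the extracellular matrix, the members that were called were higher in siI1. COL1A1, which encodes a chain of type I collagen, was at 798, 692 and 761 FPM in siI1 and 147, 161 and 109 FPM in siI3 (2.44, SE 0.19, adjusted p = 7.9e-05). The basement membrane chains COL4A1 (1.79, SE 0.22, adjusted p = 0.00078) and COL4A2 (1.63, SE 0.23, adjusted p = 0.0017), which share a bidirectional promoter, moved with it. COL5A1, a chain that regulates fibril diameter, was at 297 ± 16.7 FPM in siI1 and 103 ± 20.1 FPM in siI3 (1.53). With COL5A2 (0.93) these made 5 of 17 collagen genes tested higher and 0 lower (5 higher and 1 lower without siI3 replicate 3). The other 12, among them COL6A1 (0.40), COL6A2 (-0.35) and COL12A1 (-0.31), did not pass, and the median of the 17 was 0.00, with a sign that turned under other scalings. COL5A2 was lost in 4 of the 6 fits that left out a library (adjusted p between 0.0745 and 0.126 in the fits that lost it). COL1A2, the partner chain of COL1A1 in type I collagen, was low in all 6 libraries, at 2.59 ± 0.59 FPM in siI1 and 3.72 ± 3.68 FPM in siI3 (-0.14, adjusted p = 0.88).

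Among genes that fold, cross-link or decorate collagen, called members were higher in siI1 with 1 exception. SERPINH1, the collagen chaperone HSP47, was at 809.8, 723 and 786 FPM in siI1 and 241, 222 and 150.1 FPM in siI3 (1.94, SE 0.21, adjusted p = 0.000396). The cross-linking enzyme LOXL1 (1.72), the prolyl 3-hydroxylase P3H2 (1.82) and SPARC (1.6), a collagen-binding glycoprotein at 2308 ± 16.4 FPM in siI1, were also higher. THBS1, which activates latent TGF-beta, was at 352, 309 and 351 FPM and 58.2, 56.1 and 47.7 FPM (2.62, SE 0.17, adjusted p = 1.7e-05). TGFBI, an integrin-binding matrix protein, was at 183, 185 and 174 FPM and 28.1, 21.9 and 28.9 FPM (2.74, SE 0.17, adjusted p = 1.7e-05), and the microfibril protein FBN1 differed by 2.34. In all 10 of 31 matrix glycoproteins and modifying enzymes tested were higher and 1 lower, with a median of 0.34 (12 and 3 without siI3 replicate 3). The exception was TNC, tenascin-C, at 125, 119 and 124 FPM in siI1 and 538, 455 and 372 FPM in siI3 (-1.87, SE 0.18, adjusted p = 0.000226). Fibronectin FN1 (-0.17) and the cross-linker LOX (0.21) were not called. BGN and LOXL2, the other called members, each lost the call in at least 1 fit that left out a library (adjusted p between 0.0542 and 0.158 in the fits that lost them).

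Matrix proteases and their inhibitors went in both directions, with 8 of 17 tested higher in siI1 and 3 lower (8 and 5 without siI3 replicate 3; median 0.57). Beside MMP2 and ADAMTS15, the higher members were the membrane sheddases ADAM19 (2.17, SE 0.16, adjusted p = 4.36e-05) and ADAM12 (1.59, SE 0.16, adjusted p = 0.000264), the secreted protease ADAMTS12 (1.51), MMP19 (1.38) and the inhibitors TIMP2 (1.2) and TIMP3 (1.25). ADAM19 showed little spread, with 118, 119 and 124 FPM in siI1 and 27.2, 23.8 and 26.8 FPM in siI3. The stromelysin MMP3 was at 2.17, 2.88 and 1.71 FPM in siI1 and 16.1, 10.9 and 28.2 FPM in siI3, so it was lower in siI1, and the aggrecan-cleaving ADAMTS1 was too (-1.47, SE 0.17, adjusted p = 0.000651). The interstitial collagenase MMP1 was at 333, 388 and 291 FPM and 891, 558 and 2746 FPM, with siI3 replicate 3 far above the other siI3 libraries (-1.72, SE 0.46, adjusted p = 0.043), and it kept the call in 2 of the 6 fits that left out a library, with an adjusted p of up to 0.145. MMP19 was called in 2 of these fits as well. MMP14, the membrane enzyme that activates pro-MMP2, did not differ by enough to pass (-0.17, adjusted p = 0.677), nor did TIMP1 (-0.22).

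The plasminogen system, in which urokinase and tissue plasminogen activator generate plasmin on the cell surface, also went in both directions. The urokinase gene PLAU was at 337, 285 and 311 FPM in siI1 and 129.9, 112 and 88.6 FPM in siI3 (1.5, SE 0.19, adjusted p = 0.000859). Its receptor PLAUR went the other way, at 89.6 ± 13.8 FPM in siI1 and 178 ± 35.1 FPM in siI3 (-0.97). The inhibitors SERPINB2 and SERPINB8 (-1.34) were lower in siI1, whereas SERPINF1 (1.61), SERPINE2 (0.83), the plasminogen receptor subunit S100A10 (1.87) and PLAT, the tissue activator (0.76), were higher. This made 5 of 11 tested higher and 3 lower (6 and 3 without siI3 replicate 3). PLAUR, SERPINE2 and PLAT each lost the call without one or more libraries (adjusted p between 0.0502 and 0.182 in the fits that lost them).

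Members of the TGF-beta and BMP family that were called included ligands in both directions. TGFB2 (1.08) and BMP4 (1.69) were higher in siI1, while BMP6 (-1.86, SE 0.24, adjusted p = 0.00121) and BMP2 (-1.56) were lower. BMP6 was at 1.86, 1.6 and 1.71 FPM in siI1 and 8.84, 10.3 and 7.62 FPM in siI3. BMP1, the protease that trims procollagens, was at 48.8, 49.7 and 50.3 FPM and 15, 14.6 and 8.33 FPM (1.93, SE 0.23, adjusted p = 0.000696), and the latency protein LTBP3 was higher by 1.37; the induced matrix protein TGFBI is given above. Within the cell, the signal transducer SMAD3 (0.98, SE 0.16, adjusted p = 0.00435) and the inhibitory SMAD6 (2.01, SE 0.27, adjusted p = 0.00147) and SMAD7 (2.24, SE 0.35, adjusted p = 0.00326) were higher. The receptors TGFBR1 (0.57), TGFBR2 (0.15) and BMPR2 (0.15) were not called, nor was the target gene CTGF (0.07). In all 8 of 34 tested were higher and 2 lower (10 and 5 without siI3 replicate 3; median 0.26). TGFB2 and BMP2 each lost the call in at least 1 fit that left out a library (adjusted p between 0.0682 and 0.0727 in the fits that lost them).

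YAP and TEAD are transcriptional partners that answer to cell shape and matrix stiffness. Of 30 genes on that list 9 were higher in siI1 and 1 lower (11 and 4 without siI3 replicate 3; median 0.31). The LIM protein AJUBA was at 217, 223 and 214 FPM in siI1 and 91.3, 101 and 64.9 FPM in siI3 (1.36, SE 0.19, adjusted p = 0.00175), and the muscle-type repressor ANKRD1 was higher too (1.29, SE 0.24, adjusted p = 0.00778). The classical targets CTGF and CYR61 (0.19) were not called, nor was YAP1 itself (-0.60). AJUBA, ANKRD1 and the receptor AXL stayed called whichever library was left out, and the other 7, GADD45A among them as the lower one (-1.31), did not (adjusted p between 0.0532 and 0.158 in the fits that lost them).

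Receptor tyrosine kinases, which start most growth factor signalling at the membrane, were higher in siI1 in 7 of 18 tested and lower in 0 (8 and 0 without siI3 replicate 3; median 0.33). AXL, the GAS6 receptor, was at 1984, 1748 and 1804 FPM in siI1 and 785, 837 and 608 FPM in siI3 (1.32, SE 0.21, adjusted p = 0.00384). ROR1, an oncofetal receptor for WNT5A, was at 10.9, 13.8 and 14 FPM and 0.982, 1.91 and 0.354 FPM (2.8, SE 0.31, adjusted p = 0.000464). Its value in siI3 replicate 3 rests on 2 reads, under the floor. KIT, the stem cell factor receptor, was at 10.9, 13.9 and 11.8 FPM and 0.702, 1.27 and 2.13 FPM (2.52, SE 0.28, adjusted p = 0.000525), and the collagen receptor DDR1 was higher by 1.57. PDGFRB, which marks mesenchymal cells, was at 14.3, 12.6 and 10.9 FPM and 0.982, 1.14 and 2.84 FPM (2.42, SE 0.30, adjusted p = 0.000833). FGFR1 (0.89) and PDGFRA (1.23) were called as well, but each lost the call without one or more libraries (adjusted p between 0.0641 and 0.0919 in the fits that lost them). EGFR (-0.18), MET (0.28) and IGF1R (0.09) were not called.

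Surface genes of immune recognition were higher in siI1 in 7 of 19 tested and lower in 0 (10 and 2 without siI3 replicate 3). VSIR, also called VISTA, was at 33.5, 17 and 26.3 FPM in siI1 and 0.702, 1.65 and 1.24 FPM in siI3. CD70, the ligand of CD27, was at 75.5, 50.5 and 72 FPM and 11.4, 9.02 and 6.56 FPM (2.75, SE 0.24, adjusted p = 0.000123). The siC libraries held 16.8, 26 and 16.6 FPM of CD70, above siI3 and below siI1. The adhesion receptor VCAM1 was at 5.12, 13 and 7.69 FPM in siI1 and 0.561, 0.635 and 0.532 FPM in siI3 (2.52, SE 0.32, adjusted p = 0.00107), so that its siI3 reads were near the floor. PVR, a ligand of TIGIT (1.68), NCAM1 (2.27) and the costimulatory TNFSF9 (1.73) were higher, and the complement inhibitor CD59 was called (0.72) in 1 of the 6 fits that left out a library (adjusted p between 0.0658 and 0.12 in the fits that lost it). CD274, which encodes PD-L1, was at 2.32 ± 0.243 FPM and 4.37 ± 1.49 FPM and was not called (adjusted p = 0.201). Among guidance cues, SLIT3 was at 99.4, 96.6 and 98.6 FPM in siI1 and 15, 11.7 and 12 FPM in siI3 (2.84, SE 0.17, adjusted p = 1.7e-05), and the semaphorin coreceptor NRP1 was higher by 1.0. Of 29 guidance genes tested 5 were higher and 1, PLXNA2 (-0.80), was lower (8 and 1 without siI3 replicate 3), and their median of 0.02 changed sign with the scaling. NTN4, PLXNA2, PLXNB2 and PLXND1 lost the call in at least 1 fit that left out a library (adjusted p between 0.0645 and 0.179 in the fits that lost them). Among 22 angiogenic genes 2 were higher and 3 lower (5 and 4 without siI3 replicate 3), the lower ones being ESM1, ANGPT2 and the peptide APLN (-0.75), which was lost without one or more libraries (adjusted p between 0.0737 and 0.16 in the fits that lost it), and VEGFA was not called (-0.18).

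Interferon-stimulated genes, the antiviral set switched on by interferon receptors, were higher in siI1 in 9 of 23 tested and lower in 0 (13 and 0 without siI3 replicate 3; median 0.69). IFITM1 and IFITM3 encode membrane proteins that block virus entry. IFITM1 was at 6.99, 6.4 and 9.23 FPM in siI1 and 0.842, 0.635 and 0.709 FPM in siI3 (2.29, SE 0.26, adjusted p = 0.000562). IFITM3 was at 114, 105 and 106 FPM and 36.8, 42.4 and 44.3 FPM (1.38, SE 0.16, adjusted p = 0.000659). IFI6 was at 5.75, 7.68 and 10.3 FPM and 1.54, 1.14 and 1.06 FPM (1.96, SE 0.28, adjusted p = 0.00186). Its siC libraries held 9.86, 9.92 and 11.1 FPM. The siI3 libraries lay far below these, and siI1 replicates 1 and 2 lay below them as well. For IFITM1, siC was at 0.928, 1.4 and 0.947 FPM, and the siI1 libraries alone were high. The transcription factor IRF1 was at 66.6, 62.8 and 50.9 FPM in siI1 and 20.6, 13.2 and 19.1 FPM in siI3 (1.73, SE 0.21, adjusted p = 0.000802). STAT2, PARP9, IFI35, OAS1 and OAS2 were also called, and each lost the call without one or more libraries (adjusted p between 0.0601 and 0.126 in the fits that lost them); OAS1 was at or under the floor in siI3. ISG15 (8.61 ± 4.25 and 5.19 ± 2.6 FPM, adjusted p = 0.385) did not pass.

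MHC class I presentation loads peptides cut by the immunoproteasome onto HLA molecules, and IRF1 is one of its known activators. All 16 genes tested had a positive difference, and 8 were called higher in siI1 and 0 lower (12 and 0 without siI3 replicate 3; median 0.88). The 3 inducible proteasome subunits were among them. PSMB9 was at 53, 38.7 and 37.3 FPM in siI1 and 10.1, 9.4 and 3.37 FPM in siI3 (2.45, SE 0.34, adjusted p = 0.00147). PSMB8 differed by 1.01 and PSMB10 by 1.56. The heavy chain HLA-B (1.43), which shares sequence with other HLA genes, the peptide trimmer ERAP1 (0.87), the loading factor TAPBP (0.89) and the transactivator NLRC5 (0.82) were called as well. PSMB9 was called in each of the 6 fits, and the other 7 lost the call in 1 to 4 of them (adjusted p between 0.0525 and 0.196 in the fits that lost them). The light chain B2M was at 145, 215 and 132 FPM in siI1 and 50.1, 59.5 and 242 FPM in siI3. The siI3 library with the high value was replicate 3, the groups overlapped, and B2M was not called (adjusted p = 0.328). The peptide transporter TAP1 missed the threshold (adjusted p = 0.0702).

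Promoter sequences of interferon genes are shown because called and uncalled members of the list could be compared for the element that STAT and IRF factors bind. In the 160 bases before the RefSeq start site (GRCh38.p14), the motif GAAANNGAA, the core of that element read on both strands, occurred in 4.41% of 27305 promoters. It occurred in 3 of 8 called interferon genes with a promoter entry and in 7 of 9 that were not called, and the share was not tested. In the lines below, capitals mark the motif, which IFI6 holds in 3 places and IFITM3 in 2.
IFI6 promoter: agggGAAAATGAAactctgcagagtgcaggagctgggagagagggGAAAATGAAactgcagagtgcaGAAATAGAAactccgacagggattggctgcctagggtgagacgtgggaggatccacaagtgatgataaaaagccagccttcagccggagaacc
IFITM3 promoter: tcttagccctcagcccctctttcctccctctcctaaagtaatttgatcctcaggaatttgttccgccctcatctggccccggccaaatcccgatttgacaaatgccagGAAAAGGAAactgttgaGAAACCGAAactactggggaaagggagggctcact
The IFI6 stretch lies at chr1:27672193-27672352 on the minus strand and that of IFITM3 at chr11:320861-321020 on the minus strand. A match describes these letters and not a bound site.

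Of the inflammatory chemokines and cytokines, those called were lower in siI1. Chemokines of this class, mostly induced through NF-kB, attract neutrophils by way of CXCR2. CXCL5 was at 16.3, 11.8 and 16.9 FPM in siI1 and 73.9, 87.3 and 46.6 FPM in siI3 (-2.1, SE 0.25, adjusted p = 0.000677). CXCL3 was at 1.09, 1.12 and 1.54 FPM and 9.96, 10.7 and 7.8 FPM (-2.22, SE 0.25, adjusted p = 0.000562), and CXCL1 at 30.4, 28.8 and 33.7 FPM and 71.6, 107 and 66.6 FPM (-1.34, SE 0.21, adjusted p = 0.00284). No siI1 library reached the lowest siI3 library for any of these genes. CXCL2 (-0.99), the cytokine IL24 (-1.1) and the granulocyte factor CSF3 (-1.26) were also lower in siI1, each called in 1 of the 6 fits that left out a library (adjusted p between 0.0521 and 0.167 in the fits that lost them). CXCL1, CXCL2 and CXCL3 are similar in sequence, and reads may be shared between them. Of 19 genes tested 0 were higher and 6 lower (0 and 8 without siI3 replicate 3; median -0.31). CXCL8 was at 12.9, 16.5 and 10.1 FPM in siI1 and 23.6, 23.6 and 136 FPM in siI3. Its siI3 replicate 3 was at the siC level (127, 117 and 159.6 FPM) and the other siI3 libraries lay between siI1 and siC, and the gene was not called (adjusted p = 0.0921). The feedback inhibitor NFKBIA was not called (-0.15), nor was SOD2 (-0.26).

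The promoters of the chemokines are shown because 4 of the 5 called members with a promoter entry hold the same letters, GGAATTTCC, the core of an NF-kB site, which on either strand occurs in 0.271% of all promoters of this length. Of the 10 tested members with an entry that were not called, 3 hold it, CXCL8, NFKB1 and NFKBIA. Because CXCL1, CXCL2 and CXCL3 arose by duplication, their promoters are not separate cases. Capitals mark the site.
CXCL1 promoter: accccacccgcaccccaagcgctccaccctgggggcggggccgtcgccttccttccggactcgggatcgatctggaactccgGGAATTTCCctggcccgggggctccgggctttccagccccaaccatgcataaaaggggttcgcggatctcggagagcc
CXCL3 promoter: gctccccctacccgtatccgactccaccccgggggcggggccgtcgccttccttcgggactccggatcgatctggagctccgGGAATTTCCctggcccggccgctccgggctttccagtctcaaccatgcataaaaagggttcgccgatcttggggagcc
CXCL5 promoter: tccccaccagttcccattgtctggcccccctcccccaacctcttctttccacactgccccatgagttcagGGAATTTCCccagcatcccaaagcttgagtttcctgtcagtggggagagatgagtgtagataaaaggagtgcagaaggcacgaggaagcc
The stretches lie at chr4:73869233-73869392 on the plus strand, chr4:74038690-74038849 on the minus strand and chr4:73998678-73998837 on the minus strand (GRCh38.p14). The site starts 78 bases before the start of CXCL1 and of CXCL3 and 90 bases before that of CXCL5.

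Among immediate early and ERK-responsive genes, those called were lower in siI1. Growth factor signals through ERK induce FOS, FOSB and EGR1 within minutes, and feed back through DUSP phosphatases and Sprouty proteins. EGR1 was at 0.776, 1.28 and 0.855 FPM in siI1 and 6.88, 6.35 and 7.27 FPM in siI3 (-2.0, SE 0.26, adjusted p = 0.00105). FOS was at 1.4, 2.56 and 1.03 FPM and 8.7, 10.7 and 6.38 FPM (-1.86, SE 0.30, adjusted p = 0.00384), and FOSB at 0.621, 0.64 and 0.855 FPM and 5.47, 7.75 and 4.43 FPM (-1.99, SE 0.28, adjusted p = 0.00181). In siC FOS was at 1.74, 2.59 and 1.49 FPM, so for FOS the siI3 libraries were the high ones. The phosphatases DUSP1 (-1.56) and DUSP5 (-1.1), the inhibitor SPRY2 (-1.06), the ETS factor ETV4 (-1.04) and the EGF receptor ligands HBEGF (-1.24) and EREG (-2.1) were lower too. With VGF and ARC, 11 of 30 tested were lower and 0 higher (18 lower and 1 higher without siI3 replicate 3; median -0.62). None of the 11 lost the call when any single library of the 6 was left out. Their position relative to siC differed. The authors' log2 fold changes for siI1 against siC were -0.99 (DUSP5), -1.24 (SPRY2), -1.35 (HBEGF) and -0.90 (ETV4). For siI3 against siC these genes had 0.13, -0.17, -0.09 and 0.18. The other called members had siI3 values from 1.27 (DUSP1) to 3.73 (ARC). Both comparisons share the controls. DUSP6 (-0.03), ETV5 (-0.02) and SPRY1 (-0.24), all of the same feedback class, were not called, nor was CCND1 (0.10).

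SRF, the transcription factor that drives EGR1 and FOS through CArG boxes and is a reported IGF2BP1 target, was at 40.2, 29.6 and 37.4 FPM in siI1 and 118, 118 and 82.4 FPM in siI3 (-1.54, SE 0.20, adjusted p = 0.00121). The siC libraries held 57.9, 91.2 and 73.5 FPM. A CArG box, read on both strands, occurred in the 160 bases upstream of 0.795% of all promoters. Among genes of the ERK list with a promoter entry, it occurred in 1 of 8 called (EGR1) and in 0 of 13 not called. FOS and FOSB had no match in that window, and bases further upstream were not searched. The EGR1 promoter (chr5:138465319-138465478 on the plus strand, GRCh38.p14) carries it in 2 places, in capitals.
EGR1 promoter: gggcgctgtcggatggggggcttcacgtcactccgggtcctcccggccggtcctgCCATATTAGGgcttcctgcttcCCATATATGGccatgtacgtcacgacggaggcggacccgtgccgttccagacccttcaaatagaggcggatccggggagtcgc

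**Figure D3:**
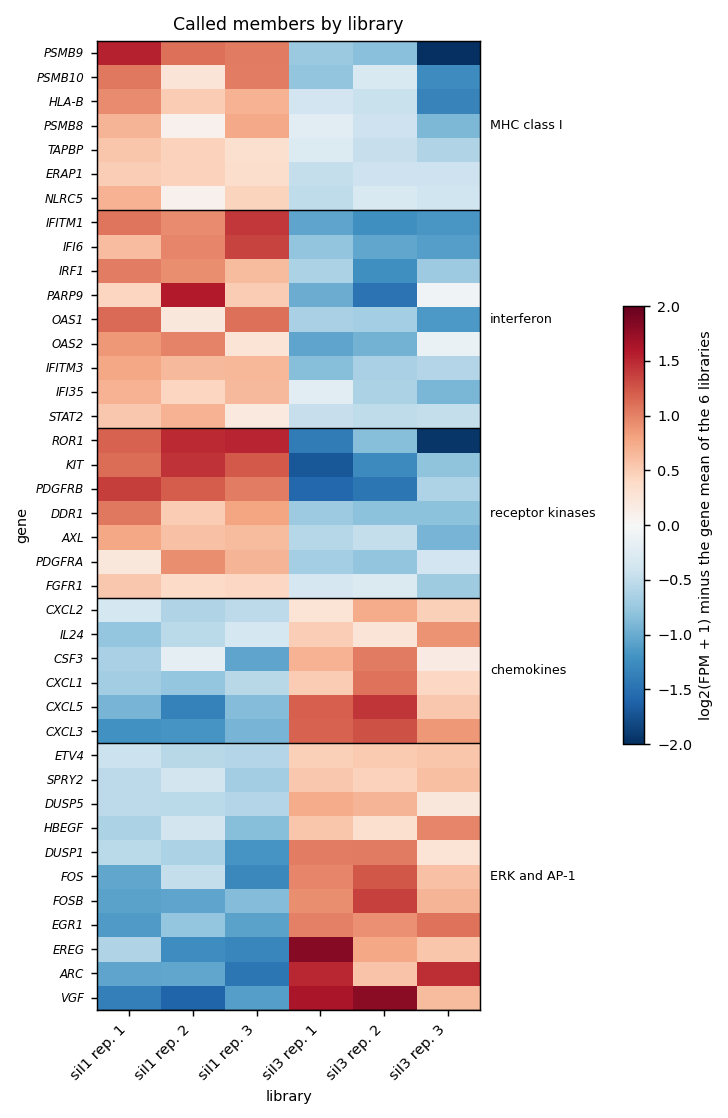
Members of 5 gene lists that were called and are reported here in the 6 libraries, as log2(FPM + 1) minus the gene's mean over the 6, from -2 (blue) to 2 (red). MHC class I, interferon and receptor kinase genes are higher in the 3 siI1 columns, and chemokine and ERK genes in the 3 siI3 columns.

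Called members of both the mesenchymal and the epithelial list were higher in siI1, with PRRX1 as the exception. Of 20 mesenchymal genes 8 were higher in siI1 and 1 lower (9 and 2 without siI3 replicate 3). The higher ones include COL1A1, COL5A1, SPARC and PDGFRB, which are already counted in lists above. THY1, a surface glycoprotein of stromal cells, was at 626, 545 and 661 FPM in siI1 and 128, 154 and 96.4 FPM in siI3 (2.29, SE 0.20, adjusted p = 0.00013), and the tropomyosin TPM1 was higher (1.73, SE 0.19, adjusted p = 0.000432). The repressor SNAI2 (1.02) and N-cadherin CDH2 (0.69) were called higher and PRRX1 lower (-0.84), but each lost the call without one or more libraries (adjusted p between 0.0565 and 0.151 in the fits that lost them). ZEB1 (-0.37) and TWIST1 (0.35) were not called. Of 8 epithelial genes tested 4 were higher and 0 lower (4 and 1 without siI3 replicate 3), with KRT8 at 162, 131 and 149 FPM and 58.8, 59.5 and 38.3 FPM (1.5, SE 0.20, adjusted p = 0.00146) and KRT18 higher by 1.33, while KRT7 and TJP1 lost the call in at least 1 fit (adjusted p between 0.0801 and 0.176 in the fits that lost them). Of 9 genes tested on a list of ovarian clear cell and serous lineage, 4 were higher and 0 lower (5 and 0 without siI3 replicate 3), KRT7, KRT8 and KRT18 among them. Of the 10 fibroblast markers listed 4 were tested, PDGFRA, PDGFRB, THY1 and COL1A1, and these 4 were higher, whereas the defining COL3A1, DCN, LUM and FAP averaged at most 1.38 FPM in either group. The summed level of the 10 fibroblast markers was 1262 to 1446 FPM in siI1 and 216 to 320.1 FPM in siI3. Most of that sum was COL1A1 (750 ± 53.5 FPM in siI1 and 139 ± 27.1 FPM in siI3) and THY1, so it mainly repeats these genes. In bulk RNA, a change in every cell and a change in the share of cells with a high level cannot be told apart.

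**Figure D4:**
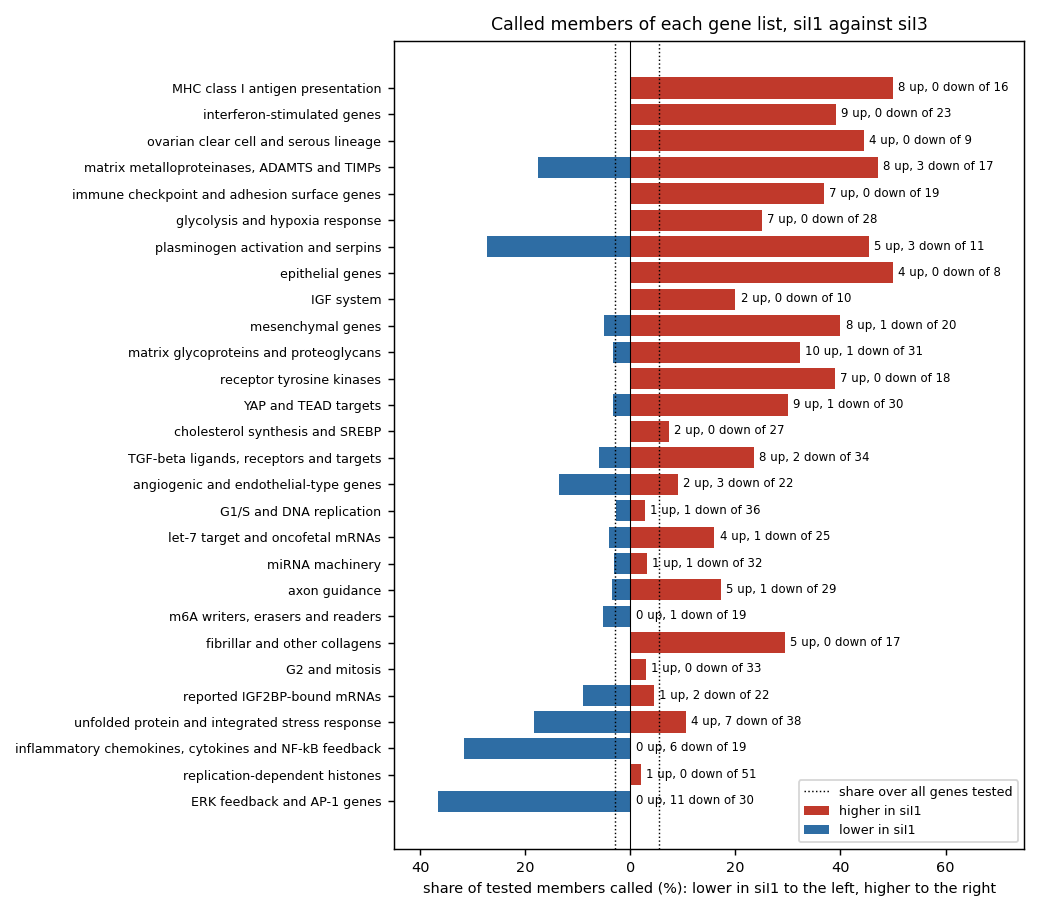
Share of the tested members of each gene list (percent) called higher in siI1 (red, to the right) and lower (blue, to the left), for lists with at least 8 members tested, ordered by median difference. Dotted lines mark the shares over all genes tested, 5.53% and 3.0%, and the ERK list reaches 11 of 30 on the lower side while the MHC class I list reaches 8 of 16 on the higher side.

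Of 28 glycolysis and hypoxia genes 7 were higher in siI1 and 0 lower (11 and 2 without siI3 replicate 3; median 0.49). The mitophagy receptors BNIP3 (1.13, SE 0.17, adjusted p = 0.00289) and BNIP3L (1.5, SE 0.27, adjusted p = 0.00648) stayed called whichever library was left out, while the glucose transporter SLC2A1 (1.42), P4HA1 (1.06), ALDOC (1.0), PGK1 (0.73) and TPI1 (0.73) did not (adjusted p between 0.0502 and 0.196 in the fits that lost them). In the stress responses to misfolded protein and to amino acid shortage, 4 of 38 were higher and 7 lower (8 and 14 without siI3 replicate 3). The amino acid transporter SLC7A5 was at 155, 134 and 138 FPM in siI1 and 391.8, 409 and 242 FPM in siI3 (-1.25, SE 0.22, adjusted p = 0.00597), and the ATF4 target CHAC1 was lower (-1.35). The calcium-regulating hormone gene STC2 was higher (1.31), as was the ER-associated HERPUD1 (0.98). Of these 11, 9 lost the call in at least 1 fit (adjusted p between 0.0545 and 0.179 in the fits that lost them), SLC7A5 and STC2 excepted, and ASNS was not called (adjusted p = 0.121). In cholesterol synthesis 2 of 27 were higher and 0 lower (6 and 2 without siI3 replicate 3), among them the sterol demethylation enzyme MSMO1 (1.21), which lost the call without one or more libraries (adjusted p up to 0.13). Over all genes tested 5.53% were higher and 3.0% lower (12.2% and 11.0% without siI3 replicate 3). The cholesterol count with all 6 libraries lies near these shares.

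Cell cycle counts depended on siI3 replicate 3, without which 23.2% of all genes tested were called against 8.53% with it. Of 33 genes of G2 and mitosis 1 was higher, the kinesin KIF20A (1.27, SE 0.23, adjusted p = 0.00809), and 0 were lower (4 and 3 without siI3 replicate 3; median -0.07). Of 36 genes of G1/S and DNA replication 1 was higher, the CDK4 inhibitor CDKN2B (1.43, SE 0.28, adjusted p = 0.0107), and 1 lower, the CDK inhibitor CDKN1A (5 and 5 without siI3 replicate 3). CDKN1A was at 2.64, 2.56 and 1.88 FPM in siI1 and 10.4, 12.2 and 9.04 FPM in siI3 (-1.78, SE 0.24, adjusted p = 0.00153). Of 51 histone genes 1 was higher, HIST1H1A (1.08), which lost the call in 1 fit (adjusted p = 0.0529), and 0 were lower. Without siI3 replicate 3, 2 histone genes were higher and 27 lower, so that this library decides the count for that list.

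For the lists tied to the known biology of the IGF2BP family, the share called over all genes tested was 8.53%. In the insulin-like growth factor system the binding proteins IGFBP7 (2.02, SE 0.28, adjusted p = 0.00173) and IGFBP4 (1.2) were higher in siI1, 2 of 10 tested with 0 lower (2 and 0 without siI3 replicate 3), and IGFBP4 lost the call in at least 1 fit (adjusted p between 0.0595 and 0.0822 in the fits that lost it). In siI3 IGFBP7 held 4, 4 and 3 reads, at or near the floor, so the size of its difference is uncertain. Of 22 mRNAs reported as bound by IGF2BPs 1 was higher, SNAI2, and 2 lower, SRF and PDLIM7 (-0.69; 3 and 4 without siI3 replicate 3). Both PDLIM7 and SNAI2 lost the call in at least 1 fit (adjusted p between 0.0565 and 0.177 in the fits that lost them). MYC (-0.16), ACTB (-0.19) and CD44 (0.44) were not called. HMGA2, an architectural chromatin protein with 4 let-7 sites in its 3' UTR, was at 26.1, 24.1 and 38.1 FPM in siI1 and 23, 22.2 and 14.2 FPM in siI3 (0.55, SE 0.25, adjusted p = 0.202). The groups did not overlap, but the difference did not pass. On the let-7 and oncofetal list 4 of 25 were higher and 1 lower (4 and 3 without siI3 replicate 3), of which IGF2BP1 and IGF2BP3 were the targeted genes themselves. The others were THBS1, the retrotransposon-derived PEG10 (1.37) and DICER1, none of which holds a let-7 site in its annotated 3' UTR. The targeted genes both hold at least 1 (4 in IGF2BP1 and 1 in IGF2BP3), as do 16 of the 20 members that were not called. Sites counted here are exact seed matches in 1 annotated 3' UTR of each gene, and other kinds of site were not searched. The list's median of 0.09 became -0.01 after correction for GC content and length. DICER1, the enzyme that cuts miRNA precursors, was at 14.4, 23 and 21 FPM in siI1 and 8.84, 6.99 and 7.27 FPM in siI3 (1.22, SE 0.23, adjusted p = 0.00982), and it lost the call in 1 fit (adjusted p = 0.0603). It was the only one of 32 genes of the miRNA machinery called higher, with the decapping factor EDC3 called lower (-0.77; adjusted p between 0.0603 and 0.178 in the fits that lost them), and AGO2 was not called (-0.60). Without siI3 replicate 3 the machinery list had 5 higher and 2 lower. Of 19 genes that write, erase or read m6A 0 were higher and 1 lower, METTL3 (-0.68), called in 1 of the 6 fits (adjusted p between 0.071 and 0.166 in the fits that lost it; 2 and 2 without siI3 replicate 3).

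Seed matches were counted because the study's title concerns IGF2BP1 and repression by miRNAs. The mature miRNAs of 4 families, from RefSeq (GRCh38.p14), are given with the seed, bases 2 to 8 from the 5′ end, in capitals.
let-7a: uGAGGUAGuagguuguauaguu
miR-29a: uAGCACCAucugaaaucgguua
miR-16: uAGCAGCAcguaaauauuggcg
miR-17: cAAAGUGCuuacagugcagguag
Of 10735 tested genes with an annotated 3' UTR, 5.93% were called higher in siI1 and 3.27% lower. Among 1066 genes with a let-7 site (CTACCTC) 64 were higher (6.0%) and 28 lower (2.63%), with a median of 0.04 against 0.02 for all. A miR-29 site (TGGTGCT) was present in 1663 genes, of which 132 were higher (7.94%) and 54 lower (3.25%), with a median of 0.08. For miR-15/16 the shares were 6.47% and 3.53%, and for miR-17/20 they were 6.02% and 3.69%. The liver miRNA miR-122, taken as a comparison, gave 6.06% and 3.85% with a median of 0.07. The length of the 3' UTR was not matched between these sets. All 5 called collagens hold a miR-29 site, as do 8 of the 12 that were not called, and this was looked up after their values were known.

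The control libraries show on which side each knockdown lay. Since the genes were called for the difference between siI1 and siI3, a control level between them is favoured by the choice, and nothing is read from how often it occurs. It occurred for 492 of the 700 genes higher in siI1 (70.3%), with a median difference from siC of 0.63 in siI1 and -0.61 in siI3, and for 280 of the 379 lower ones (73.9%), with -0.71 and 0.45. All 3 siI1 libraries lay above all 3 siC libraries, and these above all 3 siI3 libraries, for 183 genes (1.45% of those tested). The reverse order held for 71 genes (0.561%). The first set includes MMP2, with siC at 64.1, 76 and 63.2 FPM, as well as TUFT1, HEG1, TGFBI, THBS1, KIT and PSMB9. The reverse set includes ESM1, with siC at 13.3, 6.15 and 10.8 FPM, MMP3 and CXCL3. The authors' deposited table, which sets each knockdown against siC, gives MMP2 a log2 fold change of 2.07 for siI1 and -2.14 for siI3, comparisons that share the controls. For other genes 1 knockdown lay near siC and the other apart from it. COL1A1 was at 74.6, 105 and 101 FPM in siC and SLIT3 at 11.5, 15.5 and 13.4 FPM, both near siI3, whereas PLAU (406, 402 and 299.8 FPM) was near siI1. The siC libraries differ among themselves with the GC content of the transcript, with slopes against the mean of the 12 libraries of -0.46, 0.02 and -0.44 log2 per 10 points of GC, so that a position relative to siC carries that spread. The 6 libraries compared here had slopes of -0.03 to 0.21 on that scale, and across genes the difference between the knockdowns had a Spearman correlation of 0.03 with GC content, given as a description. After correction for GC content and length the test called 1536 genes, 1028 of them among the 1079.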

How the data were processed

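Total RNA from 12 ES-2 libraries was depleted of ribosomal RNA, fragmented, primed with random hexamers and sequenced as paired reads, per the labels' protocols. The submitters' processing notes name cutadapt 1.6, TopHat2 2.0.13, featureCounts 1.4.6, edgeR 3.12 and hg19. For strand use, annotation release and filters the sources used here give nothing. The authors deposited a depth-normalized signal in FPM per gene and library, together with log2 fold changes and FDR values of each knockdown against siC, per the file headers.

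Whole reads were recovered from the FPM steps (100.0% of values whole within 0.01). The 92 ERCC features were left out, and filterByExpr (minimum count 10) kept 12648 genes. The siI1 and siI3 libraries alone were compared with limma 3.58.1 (trend, two-sided, Benjamini-Hochberg over all genes tested, called at an adjusted p under 0.05) on log2(FPM + 1), a scale on which low genes show less than their full change. The siC and siI2 libraries stayed out of the fit because the siC libraries differ among themselves with GC content. Alternatives were edgeR 4.0.16 on the recovered reads (1150 genes called), DESeq2 1.42.0 (1437), voom, other scalings, pseudocounts and filters, a minimum fold, more libraries in the fit, a replicate block, GC and length correction, and leaving out each library. The test was checked on 5 sets of simulated counts with 200 genes changed in each. It recovered 2.97% of 1.5-fold, 28.6% of 2-fold and 76.2% of 4-fold changes. On average 81.2 genes were called, 8.4 of them falsely, a larger share than the threshold of 0.05. The simulated sets held fewer changed genes than were called here, so these rates may not carry over. A gene that was not called may therefore still differ, and more calls may be false than the threshold states. In R 4.3.3, GENCODE v29 (GRCh38) supplied symbols, GC content and 3' UTRs, with 52338 genes matched by identifier, 1885 by symbol and 3550 unmatched. Promoters and miRNAs came from RefSeq (GRCh38.p14).

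Named genes were the 3 IGF2BP genes, the 15 largest called changes each way among protein-coding and lncRNA genes at a mean of at least 5 FPM without overlap, and up to 4 called members a list by adjusted p. Further called members, uncalled central members, promoters and motifs were added after their values were seen. The members and lists were chosen with earlier results of these data known. Read intervals and floors cover counting error only. A few genes, and results that rest on them, are not reported here.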

Additional observations from a re-analysis of the deposited data

How the results depend on the processing

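The comparison called 1079 genes. Requiring a difference beyond 1.5-fold left 196. The replicate numbers did not pair the libraries: the correlation of deviations between siI1 and siI3 libraries of the same number was 0.21, -0.35 and -0.32, and siI1 replicate 2 correlated best with siI3 replicate 3 (0.46). A fit with the replicate number as a block called 517 genes, of which 514 were among the 1079. Leaving out 1 library gave 456 to 2933 calls, with the highest count without siI3 replicate 3 and 456 to 573 without any of the other 5, where fewer samples also widen the error. Of the 1079, 384 were called in all 6 of those fits. The other settings tried gave 916 to 1536 calls, within 1.5 times the count. None of the 180 named genes reversed direction under any alternative. Most were named because they were called, with groups that did not overlap, so a stable direction is favoured by the choice. The share of higher calls moved from 64.9% to 51.3% without a scaling factor, 52.2% with upper-quartile factors, 56.0% after GC and length correction and 52.7% without siI3 replicate 3. Genes near the floor of 3 reads have no reliable size. They include IGFBP7 and IFITM1 (6, 5 and 4 reads) in siI3. In siI1 they include ANGPT2 (4, 3 and 6 reads) and FOSB (4, 4 and 5 reads).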

Other observations

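The ERCC spike-in RNAs, which took no part in the comparison, made up 1.48%, 1.59% and 1.17% of reads in the siI1 libraries and 0.902%, 0.742% and 1.37% in the siI3 libraries. The siI3 library with the largest share was replicate 3, and the groups overlapped. In the siC libraries the share was 1.71% to 2.68%. How much spike-in each library received was not stated in the labels.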
